A study of Mus musculus with 2 samples.

Results

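The 10 genes described here are the 4 mouse Notch receptors (Notch1, Notch2, Notch3 and Notch4), 4 ligands of these receptors (Dll1, Dll4, Jag1 and Jag2), the target gene Hes1 and the nuclear effector gene Rbpj. They were chosen by name and not by a cut on their values, though earlier results of these data were known. All 10 were found among the 23411 genes of the deposited tables. Their RNA was counted in mTEC, the medullary thymic epithelial cells, which are the stromal cells of the thymic medulla that show tissue antigens to developing T cells. The thymus of 3 B6 mice was pooled, and mTEC were separated on a cell sorter by how much MHC class II they carried, into MHC-II high and MHC-II low cells. Both fractions share this strain and tissue, no treatment or genotype was labelled, and the sources used here do not give age or sex. Each fraction gave 1 library, so there were 2 libraries in all.

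Notch signalling passes between touching cells. A Delta-like (Dll) or Jagged (Jag) ligand on one cell binds a Notch receptor on its neighbour, proteases then cut the receptor, and its inner part enters the nucleus, where it joins the DNA-binding protein Rbpj and switches on genes such as Hes1. In the thymus, Dll4 on cortical epithelium is known for committing incoming progenitors to the T cell fate through Notch1, and Notch signals are also known to act within the epithelium during its development.

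The promoters of the 4 members that differed most between the libraries (below) are shown here, because those members carry the comparison. Each is the 250 bases before the annotated start, from RefSeq on GRCm38.p6, whereas the deposited reads were mapped to mm9, so no position is carried from one to the other. Capitals mark the core bound by Rbpj (TGGGAA, or TTCCCA on the other strand) in the Rbpj window, and the N-box bound by Hes proteins (CACNAG, or CTNGTG on the other strand) in the Dll4 and Notch3 windows. The letters TGGGAA are also the core bound by Ikaros.
Rbpj, chr5:53590096-53590345, plus strand: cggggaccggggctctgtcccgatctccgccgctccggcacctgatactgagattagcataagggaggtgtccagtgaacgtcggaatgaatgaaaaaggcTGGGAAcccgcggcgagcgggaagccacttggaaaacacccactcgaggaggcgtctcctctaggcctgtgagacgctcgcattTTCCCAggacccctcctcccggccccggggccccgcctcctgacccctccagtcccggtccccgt
Dll4, chr2:119325534-119325783, plus strand: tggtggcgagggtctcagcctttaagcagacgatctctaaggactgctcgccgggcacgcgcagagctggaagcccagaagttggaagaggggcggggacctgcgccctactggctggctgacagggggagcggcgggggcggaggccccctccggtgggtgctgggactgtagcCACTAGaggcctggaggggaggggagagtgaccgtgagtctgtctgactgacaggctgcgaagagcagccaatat
Jag2, chr12:112929496-112929745, minus strand: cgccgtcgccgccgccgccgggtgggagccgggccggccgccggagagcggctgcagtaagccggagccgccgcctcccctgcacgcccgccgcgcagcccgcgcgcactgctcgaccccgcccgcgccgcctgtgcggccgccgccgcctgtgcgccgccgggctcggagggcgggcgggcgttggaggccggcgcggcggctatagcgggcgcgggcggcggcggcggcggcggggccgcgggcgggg
Notch3, chr17:32166891-32167140, minus strand: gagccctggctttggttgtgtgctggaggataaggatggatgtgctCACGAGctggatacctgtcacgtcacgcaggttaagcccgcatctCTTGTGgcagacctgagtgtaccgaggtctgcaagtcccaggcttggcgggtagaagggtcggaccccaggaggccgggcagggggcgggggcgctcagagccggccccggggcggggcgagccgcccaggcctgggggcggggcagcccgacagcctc

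Of the 10 members, 9 had a promoter entry, with 11 windows in all, as Dll1 and Rbpj had 2 each. The Rbpj core was found in 2 of the 11 windows, both of them Rbpj windows that overlap, at 149 and 65 bases before the first start. Over all 32851 windows of the same length, 21.6% held these letters. The N-box was found in 4 of the 11 windows, those of Notch1, Notch2, Notch3 and Dll4, against 36.7% of all windows. G and C made up 87.2% of the Jag2 window, 65.2% of the Rbpj window shown, 65.6% of the Dll4 window and 68.8% of the Notch3 window, where the median over all windows was 52.4%. Such matches describe the letters of these windows and show no binding.

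The high library held 138368535 reads on the 23411 genes and the low library 56077479, which is 2.47 times fewer. Levels are given as CPM, the read counts scaled to TMM-adjusted library totals, and, wherever genes are compared with each other, as CPM per kilobase of the listed transcript. With 1 library per fraction no difference has a replicate check or a p-value. Each ratio of high to low has an exact 95% Clopper-Pearson interval and each level an exact 95% Poisson interval, and both cover counting error only. Below, a gene is called higher or lower in MHC-II high mTEC only where both ends of that interval are past 2-fold. Epcam, a gene of all thymic epithelium, stood at 621 and 586 CPM (high, then low, here and below). Aire, the transcriptional regulator of mature mTEC, was at 571 and 21.0 CPM. Genes of other cell types were read as well. Summed levels were 157 and 1133 CPM for fibroblast, 60.3 and 2140 CPM for erythroid, and 407 and 90.4 CPM for dendritic cell and macrophage genes. None of 96 marker genes was at 0 reads in either library.

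Of the 10 members, Dll4 and Rbpj were higher in MHC-II high mTEC beyond 2-fold, Jag2 and Notch3 were lower, and the other 6 were not beyond 2-fold. Among all 17438 genes with a mean of at least 1 CPM, 14.5% were higher and 10.9% lower by the same rule, so 2 of 10 in each direction is close to the background. All 10 members were above 1 CPM in both libraries, so none passed the minimum through 1 library. The median log2 ratio was −0.48 over the members and −0.01 over all genes tested. In bulk RNA, fewer cells that express a gene and less RNA per cell cannot be told apart.

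**Figure D1:**
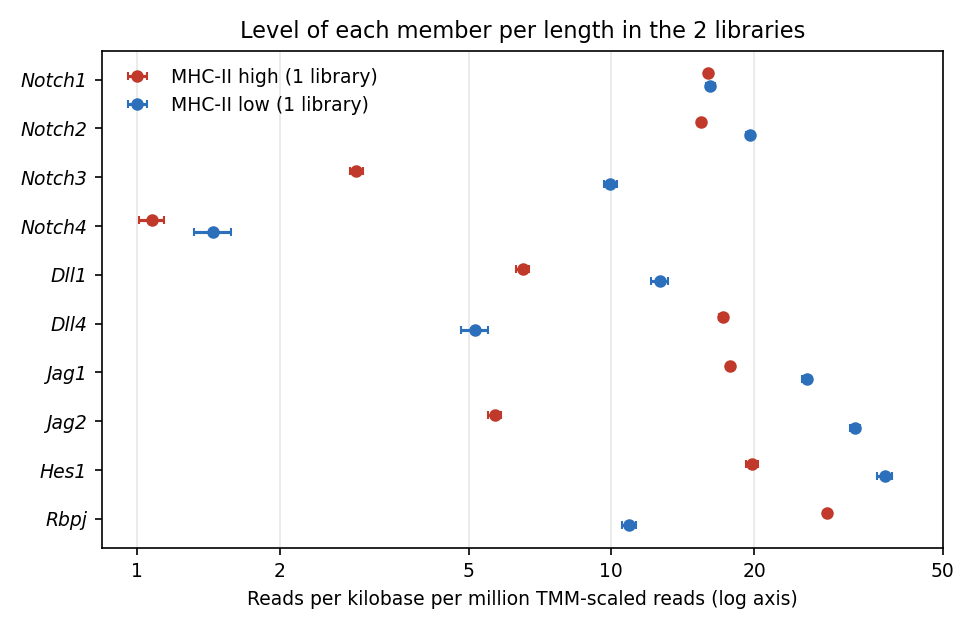
Level of each member in CPM per kilobase of transcript (x axis, log scale) in the MHC-II high (red) and the MHC-II low library (blue), 1 library each, with exact 95% Poisson intervals for counting error. Rbpj and Dll4 lie further right in the high library (28.5 and 17.2) than in the low one (10.9 and 5.15), while Jag2 and Notch3 lie further left (5.67 and 2.90 against 32.7 and 9.94).

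The ligands changed places between the fractions. Dll4, the Delta-like ligand best known from cortical epithelium, had 9064 reads (59.3 CPM) in the high and 902 reads (17.8 CPM) in the low library. It was 3.34-fold higher in the high library (interval 3.12 to 3.58), a ratio above that of 91.3% of the genes tested. Jag2, a Jagged ligand, had 3514 reads (23.0 CPM) in the high and 6729 reads (132 CPM) in the low library. Its level in MHC-II low mTEC was 5.76 times that in MHC-II high mTEC (5.53 to 6.003), and 2.196% of the genes tested had a lower ratio. Per kilobase, Dll4 was thus the scarcest of the 4 ligands in MHC-II low mTEC, and Jag2 the scarcest in MHC-II high mTEC.

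The remaining pair of ligands differed less. Jag1, the other Jagged ligand, had 14958 reads (97.9 CPM) in the high and 7205 reads (142 CPM) in the low library, a log2 ratio of −0.54 (−0.58 to −0.49). Dll1, a Delta-like ligand that also activates Notch receptors, had 3403 reads (22.3 CPM) in the high and 2200 reads (43.3 CPM) in the low library. Its log2 ratio of −0.96 had an interval of −1.04 to −0.88 that reached 2-fold, so it was not counted as lower.

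Set side by side per kilobase, Jag1 (17.8) and Dll4 (17.2) led the ligands in the high library. Their intervals overlapped only at the edge (17.54 to 18.11 and 16.84 to 17.55). Such overlap does not place their order within counting error, and no interval of their ratio within that library was computed. Dll1 (6.497) and Jag2 (5.67) followed. In the low library the order per kilobase was Jag2 (32.7), Jag1 (25.8), Dll1 (12.6) and Dll4 (5.15), with no neighbouring intervals overlapping. Summed per kilobase, the 4 ligands came to 47.2 (high) and 76.3 (low). Of that sum Dll4 made up 36.4% and 6.75%, and Jag2 12.0% and 42.8%. Jag1 held a like share in both, 37.8% and 33.9%.

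**Figure D2:**
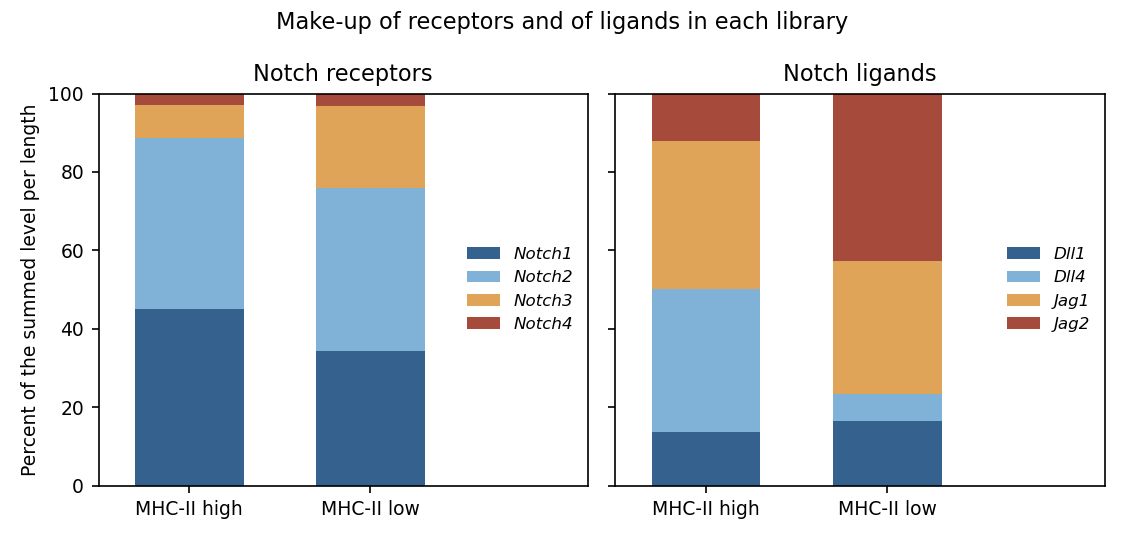
Share of each receptor (left) and each ligand (right) in the summed level per kilobase of its role (y axis, percent), with 1 bar per library. Among ligands Dll4 stands at 36.4% (high) and 6.75% (low) and Jag2 at 12.0% and 42.8%, while among receptors Notch3 stands at 8.19% and 21.1%.

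A ratio of 2 genes within a library does not depend on how the libraries are scaled. Per kilobase, Dll4 was at 3.03 times Jag2 in the high library and at 0.158 times Jag2 in the low one, a 19.2-fold difference (interval 17.8 to 20.8). Dll4 relative to Dll1 differed 6.496-fold (5.96 to 7.09), and Dll4 relative to Jag1 4.84-fold (4.50 to 5.21). Jag1 relative to Jag2 differed 3.98-fold (3.78 to 4.18), so the Jagged ligands differed between the fractions unequally. These were among 11 pairs of members, chosen with their values known and given as a description.

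Among the receptors, Notch1 and Notch2 were not beyond 2-fold between the fractions. Notch1, the receptor of T cell commitment, had 23151 reads (152 CPM) in the high and 7795 reads (153 CPM) in the low library. The interval of its log2 ratio, −0.06 to 0.02, included 0. Notch2 had 24855 reads (163 CPM) and 10483 reads (206 CPM), a log2 ratio of −0.34 (−0.38 to −0.31). Thymocyte and T cell genes, which could bring Notch1 reads, were read in both libraries, with summed levels of 79.9 and 110 CPM over 11 genes. Among them were Thy1 at 28.7 and 35.2 CPM and Lck at 11.9 and 18.3 CPM. Of the 10 tested, 1 was higher and 2 were lower in the high library, against 14.5% and 10.9% of all genes. The part of such cells in the Notch1 reads was not tested.

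Notch3, the receptor known from vascular smooth muscle and pericytes, had 3519 reads (23.0 CPM) in the high and 4011 reads (79.0 CPM) in the low library. Its level in MHC-II low mTEC was 3.43 times that in MHC-II high mTEC (3.28 to 3.59). Pericyte and smooth muscle genes were mixed: of 9 tested, 4 were lower in the high library and 0 were higher, against 10.9% and 14.5% of all genes. Their median log2 ratio was −0.44. Over the 10 genes of that list the summed levels were 598 and 954 CPM. The pericyte gene Rgs5 was at 235 and 175 CPM and the smooth muscle myosin gene Myh11 at 201 and 121 CPM, and neither was beyond 2-fold. The 4 lower genes, named after their values were seen, were Acta2 (smooth muscle actin, 48.6 and 462 CPM), Des (48.4 and 101 CPM), Mcam (6.85 and 49.7 CPM) and Kcnj8 (0.694 and 3.37 CPM). The part of such cells in the Notch3 difference was not tested.

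Notch4, a receptor known from blood vessels, was the scarcest member in both libraries, with 1084 reads (7.10 CPM) in the high and 485 reads (9.55 CPM) in the low one. Its log2 ratio was −0.43 (−0.58 to −0.27). All 12 blood endothelial genes were lower in the high library, against 10.9% of all genes. Their median log2 ratio was −3.28 and their summed levels were 114 and 727 CPM. Vwf was at 32.7 and 142 CPM and Pecam1 at 7.60 and 163 CPM. The part of endothelial cells in the Notch4 values was not tested.

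Per kilobase, the receptors stood in the order Notch1 (15.97), Notch2 (15.48), Notch3 (2.90) and Notch4 (1.07) in MHC-II high mTEC. In MHC-II low mTEC the order was Notch2 (19.6), Notch1 (16.2), Notch3 (9.94) and Notch4 (1.45), and no neighbouring intervals overlapped in either library. Summed per kilobase, the 4 receptors came to 35.4 (high) and 47.2 (low). Of that sum Notch3 held 8.19% and 21.1%. Relative to Notch1, Notch3 differed 3.38-fold between the libraries (3.21 to 3.57), and Notch1 relative to Notch2 1.25-fold (1.21 to 1.30).

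Rbpj, the DNA-binding protein through which all Notch receptors act, and which represses the same genes when no receptor fragment is bound, went with Dll4. It had 24126 reads (158 CPM) in the high and 3068 reads (60.4 CPM) in the low library and was 2.61-fold higher in MHC-II high mTEC (2.52 to 2.71). All 3 listed Rbpj transcripts gave log2 ratios between 1.38 and 1.39, but they share nearly all reads and are no separate evidence. Rbpj has 2 named processed pseudogenes in GENCODE vM21, and the sources used here do not say how reads that fit both were placed.

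Hes1, the repressor gene that Notch signalling commonly induces, went the other way in value. It had 4397 reads (28.8 CPM) in the high and 2781 reads (54.8 CPM) in the low library, so MHC-II low mTEC had 1.90 times the level (1.81 to 1.996), so the whole interval lay within 2-fold. Per kilobase Rbpj stood first in the high library (28.5) with Hes1 second (19.8), whereas Hes1 stood first in the low library (37.7) with Rbpj seventh of the 10 (10.9). Rbpj relative to Hes1 differed 4.97-fold between the libraries (4.68 to 5.28). Relative to Notch1, Rbpj differed 2.65-fold (2.53 to 2.77).

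**Figure D3:**
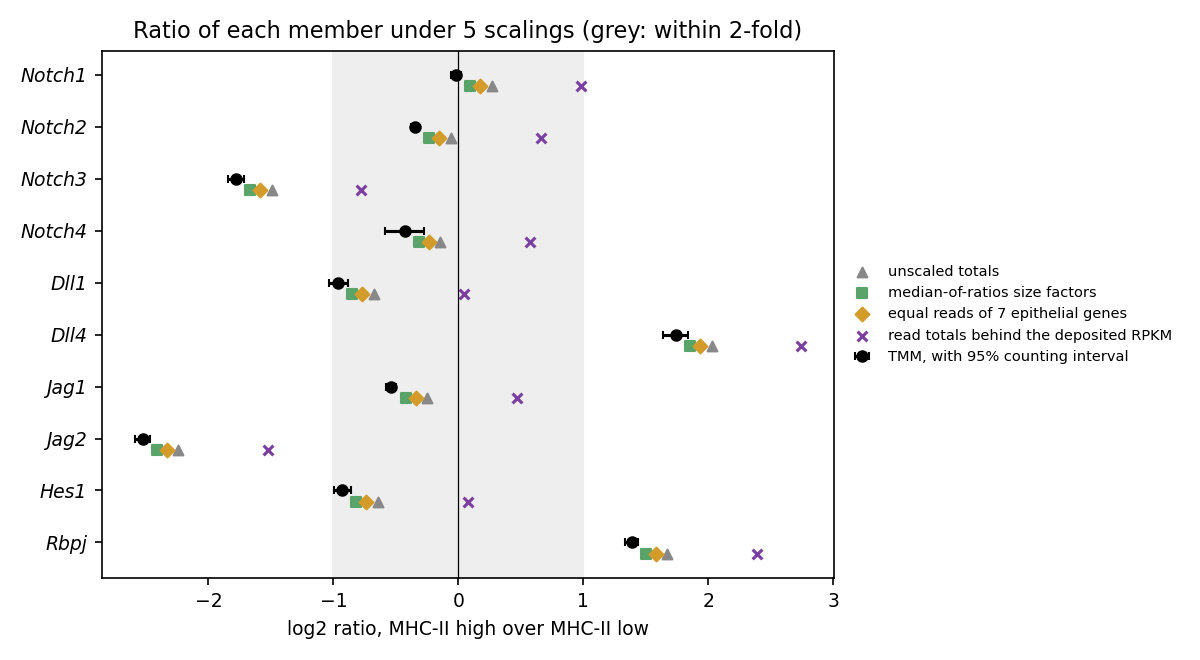
Log2 ratio of MHC-II high over MHC-II low (x axis) for each member under 5 scalings of the 2 libraries, with 95% counting intervals on the TMM values (black) and a grey band within 2-fold. Under each scaling drawn, Dll4 and Rbpj lie above 0 and Jag2 and Notch3 below 0, while the other 6 members lie above 0 when scaled by the totals used for the RPKM.

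The direction of 6 members depended on the scaling. The deposited RPKM values divide by read totals that shift every log2 ratio by 1.002 relative to TMM, and with these totals Notch1 was at 0.98, Notch2 at 0.66, Notch4 at 0.57, Jag1 at 0.47, Hes1 at 0.07 and Dll1 at 0.04 on the log2 scale. In the deposited RPKM itself Dll4 was at 12.3 and 1.84, Rbpj at 20.4 and 3.89, Jag2 at 4.05 and 11.7, and Notch3 at 2.07 and 3.55. By these totals Dll4 and Rbpj were higher, where 45.2% of 16016 genes were, and Jag2 alone was lower, where 2.94% were. Notch3 had a log2 ratio of −0.78 there. With unscaled totals, which shift every ratio by 0.29, the same 4 members were called, against 19.8% of genes higher and 7.35% lower, and Notch1 was at 0.27.

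The library kept no strand, so reads of genes that overlap on opposite strands cannot be told apart. In GENCODE vM21, exons of Notch1, Notch3, Dll1 and Dll4 overlap exons of genes on the other strand, and a Notch2 exon overlaps a gene model on its own strand. The gene opposite Dll4, Gm14207, shares 214 exonic bases with it and had 1552 and 247 reads. With all of these taken from Dll4, 7512 and 655 reads would be left, a 3.81-fold difference (3.52 to 4.14). For the other overlaps such a value was not computed.

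The wider pathway was described with 74 further genes in 8 roles, of which 72 were analysed and 70 had a mean of at least 1 CPM. Of these 70, 4 were higher in MHC-II high mTEC (5.71%, against 14.5% of all genes), 9 were lower (12.9%, against 10.9%), and the median log2 ratio was −0.23. Mfap2, Bend6 and Hes3 were under 1 CPM in 1 library. The remaining 67 held 3 of the higher and 8 of the lower genes. With unscaled totals 9 genes were higher and 6 lower, against 19.8% and 7.35% of all genes. By the totals used for the RPKM 23 were higher and 3 lower, against 45.2% and 2.94% of all genes.

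Of the genes that process receptors and ligands, 1 of 19 was lower and 0 were higher, against 10.9% and 14.5% of all genes. None of 5 glycosyltransferase genes, whose products add sugars that tune ligand binding, was beyond 2-fold. Poglut1 was at 93.8 and 90.3 CPM, Pofut1 at 39.8 and 49.7 CPM, and the Fringe gene Mfng at 28.2 and 15.0 CPM, with an interval of its ratio from 1.75 to 2.04. None of 9 protease genes was beyond 2-fold either. Adam10, the protease that makes the first cut after ligand binding, was at 228 and 216 CPM, Adam17 at 135 and 85.6 CPM, and the gamma-secretase gene Aph1a at 34.0 and 60.6 CPM. Of 5 ligases that act on ligands, Neurl1a was lower, at 19.4 against 44.5 CPM, while Neurl3 was at 58.8 and 38.3 CPM and Mib2 at 29.4 and 49.9 CPM. The call of Neurl1a ended with unscaled totals (log2 ratio −0.91), with the totals used for the RPKM (−0.20) and with equal reads of the 7 thymic epithelial genes (−1.01, with an interval that reached 2-fold). Mfng was called higher with unscaled totals (1.20). With the totals used for the RPKM, Mfng (1.92), Poglut1 (1.05), Neurl3 (1.62), Adam10 (1.08) and Adam17 (1.66) were called higher.

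**Figure D4:**
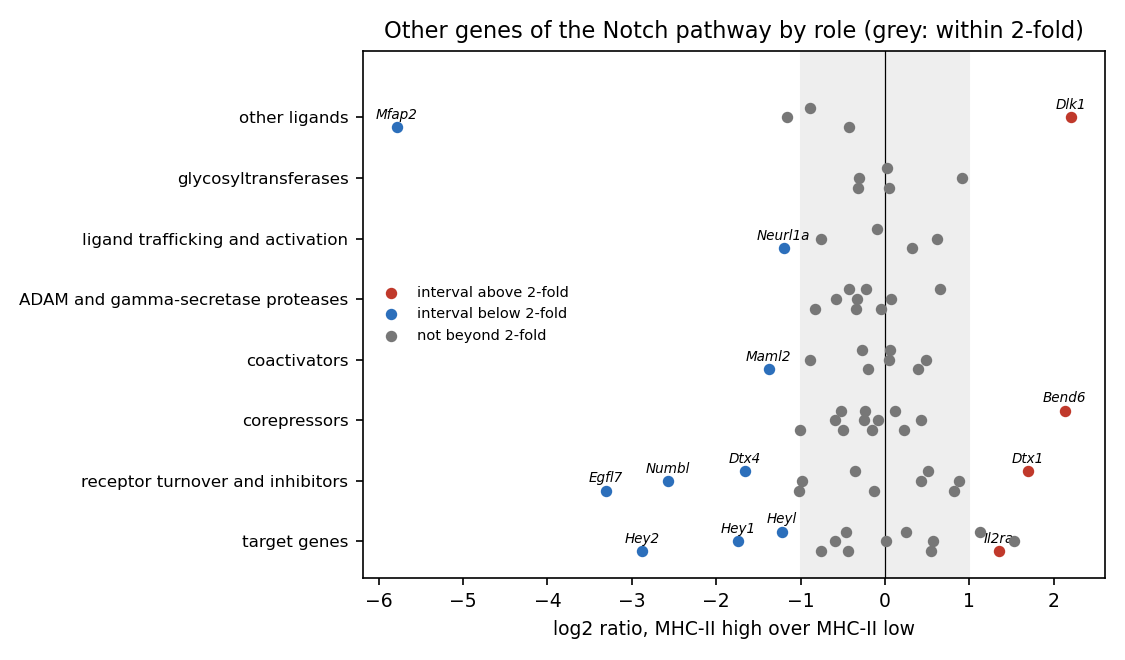
Log2 ratio of MHC-II high over MHC-II low (x axis, TMM scaling) for the 70 tested genes of the wider pathway, 1 point per gene, by role (y axis; height within a row has no meaning). Red and blue points have a whole 95% counting interval above or below 2-fold. The target genes Hey1, Hey2 and Heyl are all on the lower side, and no protease or glycosyltransferase gene is coloured.

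Among cofactors of Rbpj, 1 of 8 coactivator genes was lower (against 10.9% of all genes) and 1 of 12 corepressor genes was higher (against 14.5%). Of the 8 coactivator genes Maml2, whose product binds the Notch and Rbpj complex, was lower (11.5 against 30.0 CPM) and none was higher. Ep300 was at 116 and 88.4 CPM and Snw1 at 86.9 and 83.9 CPM. Of the 12 corepressor genes Bend6 was higher, on 382 against 29 reads, with 2.50 and 0.571 CPM. Tle3, a Groucho-family corepressor gene, was at 155 and 115 CPM. The call of Maml2 ended with unscaled totals (log2 ratio −1.09, with an interval that reached 2-fold) and with the totals used for the RPKM (−0.38). By the totals used for the RPKM, Ep300 (1.40), Snw1 (1.05) and Tle3 (1.43) were called higher, and Bend6 fell under the minimum mean of 1 CPM.

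The 3 target genes of the Hey family were lower in MHC-II high mTEC with TMM scaling. Hey2 was at 4.97 against 36.6 CPM, 7.36-fold higher in the low library (interval of the ratio of high to low 0.125 to 0.148). Hey1 was at 15.4 against 51.3 CPM and Heyl at 26.7 against 62.3 CPM, in the low library 3.33 and 2.34 times the high level. Scaled by the totals used for the RPKM, Hey1 and Hey2 had log2 ratios of −0.73 and −1.88 and Heyl one of −0.22, so Hey2 alone was called. The call of Heyl also ended with unscaled totals (−0.94) and with equal reads of the 7 thymic epithelial genes (−1.03, with an interval that reached 2-fold). Hes5 had too few reads to be tested, 14 and 20, and Nrarp, a feedback inhibitor that Notch induces, was at 41.2 and 52.6 CPM. Hey1 is itself on the arterial endothelial list, with summed levels of 315 and 247 CPM. Of that list 1 of 5 was higher and 2 were lower, against 14.5% and 10.9% of all genes. The Hey genes are also known from blood vessels, and the blood endothelial genes given above moved the same way as the Hey genes. The part of endothelial RNA in these values was not tested.

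Of 14 target genes tested, 3 were thus lower and 1, the interleukin-2 receptor gene Il2ra, was higher (94.7 against 37.2 CPM). Among all genes 10.9% were lower and 14.5% higher, so counts over 14 genes are near the background. Bhlhe40 was at 298 and 410 CPM and the cell cycle inhibitor gene Cdkn1a at 260.1 and 258 CPM.

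Among 12 genes of receptor turnover and inhibition 1 was higher and 3 were lower, against 14.5% and 10.9% of all genes. Dtx1, a Deltex gene that Notch is known to induce in lymphocytes, was the higher one, with 16.1 against 4.96 CPM. Egfl7, an endothelial antagonist, was lower (1.14 against 11.3 CPM), as were Numbl (3.99 against 23.8 CPM) and Dtx4 (10.1 against 31.8 CPM), whose call ended with the totals used for the RPKM (log2 ratio −0.65). Nedd4, a ubiquitin ligase gene with the most reads of the role, was at 519 and 1025 CPM with a ratio interval of 0.501 to 0.512. Dtx3 was at 104 and 77.2 CPM and was called higher with the totals used for the RPKM (log2 ratio 1.43). Of 5 further ligand genes 1 was higher and 1 lower, where the shares over all genes were 14.5% and 10.9%. Dlk1, a ligand-like protein without the usual receptor-binding domain, was 4.61-fold higher (4.13 to 5.17), with 30.4 against 6.60 CPM. Dll3, a Delta-like protein that does not activate receptors from outside the cell, was at 6.19 and 8.31 CPM. Mfap2, a microfibril protein, was lower, on 6 against 110 reads.

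**Figure D5:**
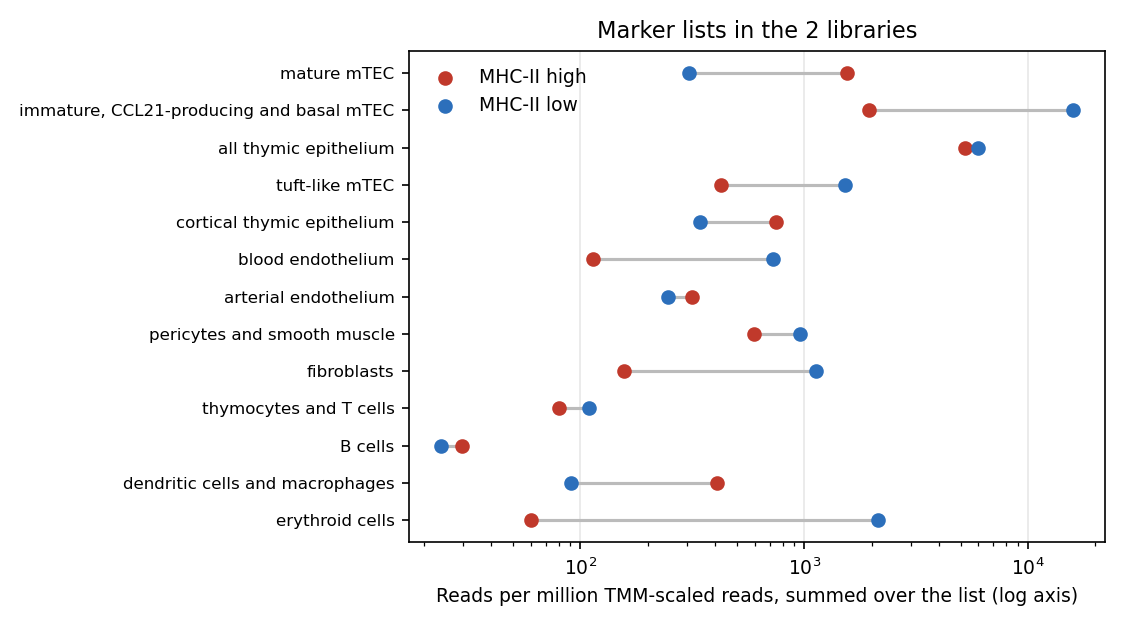
Summed level of each marker list (y axis) in CPM (x axis, log scale) in the MHC-II high (red) and MHC-II low library (blue), 1 library each. Blood endothelial (114 and 727 CPM), fibroblast (157 and 1133 CPM) and erythroid genes (60.3 and 2140 CPM) lie lower in the high library, and mature mTEC (1555 and 306 CPM) and dendritic cell and macrophage genes (407 and 90.4 CPM) higher.

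Markers of several cell types differed in the same direction as the called members. Among all genes tested 14.5% were higher and 10.9% lower by the same rule. With 2 libraries each gene has only 1 ratio, so a shared direction ties no marker to a member. Beside Dll4 and Rbpj, all 6 mature mTEC genes were higher in the high library, with Aire and Fezf2 (466 against 154 CPM) having the most reads, as were 5 of 7 dendritic cell and macrophage genes, led by Lyz2 at 362 against 74.0 CPM. Cortical epithelial genes, which could bring Dll4, were mixed: 3 of 7 were higher and 1 was lower. Tbata was at 348 and 73.2 CPM and Ccl25 at 290.5 and 42.7 CPM. The cortical proteasome gene Psmb11, picked after its values were seen, was at 5.75 and 10.3 CPM. Beside Jag2, Notch3 and the Hey genes, 6 of 7 genes of the immature and basal mTEC list, which includes CCL21 producers, were lower in the high library. Krt5 was at 768 and 5861 CPM and Ccl21a at 383 and 6688 CPM. Of 7 tuft-like genes 6 were lower (summed levels 427 and 1527 CPM), and of 8 fibroblast genes 6 were lower. The genes of all thymic epithelium summed to 5234 and 5983 CPM, with 1 of 7 higher and 1 lower. The part of each cell type in the members' differences was not tested.

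With 2 libraries, genes whose pattern is most like that of a member can only be those with the nearest pair of levels. Over 15997 genes, the nearest to Dll4 by distance of log2 CPM was Tcf7 (58.7 and 18.1 CPM, distance 0.0289), and the nearest to Rbpj was Jade1 (155 and 59.2 CPM, 0.0386). The nearest to Jag2 was Mgat5b (21.7 and 129 CPM, 0.0935), and the nearest to Notch3 was Hyal2 (22.3 and 79.7 CPM, 0.0466).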

How the data were processed

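Per the submitters' processing notes, the build was mm9 and the tools were CASAVA, Bowtie 1.0.0 and bedtools, whose settings, like the annotation, are not given in the sources used here. For every RefSeq transcript the deposited tables give counts, length and RPKM, per the file headers. The deposited counts were raw, and isoforms each held the reads they share. The deposited RPKM equalled count over length and 1 read total per library, 213854095 for high and 142330178 for low. It is not stated in these sources if mates were counted separately. Per the labels' protocols, RNA of 3 pooled mice was used, with a kit that keeps no strand, and the design text gives 15 PCR cycles.

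Stray read records (18 and 36 lines) were left out, and 840 lines of further genomic copies were summed in the high table. Of 29920 accessions, 29800 with equal lengths in both tables were used. The rest were in 1 table only or differed in length. Symbols came from RefSeq GRCm38.p6 (29233 accessions) and GENCODE vM21 (173), and 394 had none. Of a gene's transcripts, the one with most reads stood for it. TMM factors from edgeR 4.0.16 in R 4.3.3, over 17444 genes with a mean unscaled CPM of at least 1, gave scaled totals of 152792518 and 50783629. Reads without molecular identifiers are not independent molecules, so intervals cover counting error only. The ratio and its interval were tested on simulated Poisson reads with the same scaled totals. Such reads hold counting error only, so error from PCR copies, libraries or scaling was not tested.

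The members, lists and tests were chosen with earlier results of these data known. Named were all members, per role the 2 genes with the most reads and the 1 with the largest log2 ratio in size, Hes5, Hey1, Hey2, Heyl and Nrarp, up to 2 genes per marker list by reads, the nearest gene of each called member, and genes that a count of 5 or fewer needed. One gene that this rule names is not reported here. Alternatives were 3 other scalings, other transcripts, no minimum and other fold limits. TMM over all genes, scaling to the reads of 7 epithelial genes and Dll4 without the reads of Gm14207 were added after seeing the data.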

Additional observations from a re-analysis of the deposited data

How the results depend on the processing

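No paired analysis was possible because each fraction has 1 library. Each scaling moves all genes alike, by at most 1.002 on the log2 scale, which can end or add calls beyond 2-fold. Every other scaling raised the log2 ratios relative to the main TMM scaling, by 0.113 to 1.002. Over the scalings, the main values are thus the smallest differences for Dll4 and Rbpj and the largest for Jag2 and Notch3. No called member or called named pathway gene changed sign under any scaling. A call needs a whole interval beyond 2-fold, and shifts of this size can hardly undo its sign. That outcome was therefore all but fixed in advance. Over 8 scaling and transcript settings the log2 ratios were 1.74 to 2.74 for Dll4, 1.39 to 2.39 for Rbpj, −2.53 to −1.52 for Jag2 and −1.78 to −0.78 for Notch3. Notch1 was above 0 under 5 and below 0 under 3 of them. Notch2, Notch4, Dll1, Jag1 and Hes1 were above 0 with the read totals behind the RPKM and below 0 under the other 7. Every member but Rbpj has 1 listed transcript. For those members the transcript settings could only repeat the TMM value, so they add nothing to these tallies. The read totals behind the RPKM left 1 member higher in the low library, because they shift every log2 ratio by 1.002. They gave 23 pathway genes higher and 3 lower, against 45.2% and 2.94% of all genes. They ended the calls of Notch3, Neurl1a, Maml2, Hey1, Heyl and Dtx4 and left Mfap2 and Bend6 under the minimum. Unscaled totals gave 9 higher pathway genes (against 19.8% of all genes) and ended the calls of Neurl1a, Maml2 and Heyl. A limit of 1.5-fold gave 4 members higher in the low library, Dll1 and Hes1 being added (against 20.4% of all genes lower), and 10 pathway genes higher (against 22.8%) and 18 lower. A limit of 3-fold left Dll4 as the 1 member higher in the high library (against 8.01% of all genes) and 1 pathway gene higher and 5 lower (against 5.24%). Without a minimum 4 pathway genes were higher and 10 lower, against 12.4% and 16.6% of all genes. The low library, with 2.47 times fewer reads, limits the precision of scarce genes such as Hes5 and Bend6.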
